A study of Mus musculus with 9 samples.

Results

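The EGF family was examined in RNA of the paraventricular nucleus (PVN) through 10 genes of the 27179 in the count table, 7 ligands (Areg, Ereg, Hbegf, Egf, Tgfa, Btc and Nrg1) and 3 receptors (Egfr, Erbb2 and Erbb4), picked by gene symbol. The family was taken up because Areg was already known to have the largest rise among the genes called in HFD+Mino over HFD (1 tested gene that was not called had a larger fitted rise). The levels of Areg, and the values of all members in that comparison, are therefore given as a description and without a test. In the other comparisons the remaining members were tested in a fit of all genes.

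PVN punches came from wild type male C57BL/6 mice (C57BL/6J in the study's methods), 3 per group, that were 5 weeks old when the diets began. Control mice were kept on chow (16% of calories from fat) for 12 weeks, HFD mice on a high-fat diet (60%) for as long, and HFD+Mino mice on that same high-fat diet with minocycline, a tetracycline antibiotic with anti-inflammatory action, in the drinking water at 40 mg/kg/day for the final 6 weeks. HFD mice drank plain water, and no group received minocycline on chow. Each RNA sample came from roughly 30 to 60 mg of punched tissue, which can hold cells from outside the nucleus.

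EGF family ligands are made as membrane-anchored precursors, are released by metalloproteases such as Adam17 and Adam10, and bind ERBB receptor tyrosine kinases, which pair up and signal mainly through the RAS-ERK and PI3K-AKT cascades. Areg, Egf and Tgfa bind Egfr, whereas Hbegf, Btc and Ereg bind Erbb4 as well, Nrg1 binds Erbb3 and Erbb4, and Erbb2 has no ligand of its own and serves as a partner for the others. In the hypothalamus, Tgfa and neuregulins acting on glial Egfr and Erbb4 are known for their part in the timing of puberty.

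Libraries held 17728590 to 42326213 counts, so that 1 count equals between 0.0248 and 0.0502 CPM (the count as a share of the TMM-scaled library size, the unit used throughout). Vasopressin (Avp), oxytocin (Oxt), Crh, Trh, Sim1 and Otp served to check the tissue label, and their summed level was 27.8 to 2560 CPM in Control, 2480 to 3730 CPM in HFD and 3100 to 37700 CPM in HFD+Mino. Control replicate 1 had 6 Avp counts (0.149 CPM), 0.77 CPM of Oxt, 0.77 CPM of Sim1 and no Otp count, so that these 4 markers were at or near 0 in that library. Its Trh was at 5.49 CPM (260 CPM or more in the other libraries) and its Crh at 20.6 CPM, within the range of the other Control libraries. HFD+Mino replicates 1 and 2 stood apart at the other end, with 28000 and 22200 CPM of Avp against 1220 CPM in HFD+Mino replicate 3. By edgeR and by DESeq2, 0 of these 6 markers were called in any comparison, with 0, 0 and 3 at an unadjusted p under 0.05 in edgeR for HFD over Control, HFD+Mino over HFD and HFD+Mino over Control. The ribosomal precursor Rn45s was at 239 to 461 CPM in Control, 3480 to 3830 CPM in HFD and 426 to 1350 CPM in HFD+Mino. Long transcripts were favoured to different degrees, since the mean log2 deviation of the longest genes minus that of the shortest was -0.20 to 0.42 in Control, 0.49 to 0.68 in HFD and -0.93 to -0.28 in HFD+Mino.

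Areg lies in a row of EGF family ligand genes on mouse chromosome 5, and it was the only one of them that reached more than 10 CPM in any library. On the GRCm38 assembly, Epgn occupies 91027517-91035212, Ereg 91074617-91093649, Areg 91139599-91148432 and Btc 91357261-91402994, the last on the minus strand and the others on the plus strand. These are the only 4 protein-coding genes among the 7 RefSeq genes in this stretch of 375.5 kb. Their start sites are shown as a description, except that of Ereg, which had no match. No relation of the sequence to the levels was tested. The 100 bases before the start, 5′ to 3′ on the gene's own strand, were read from RefSeq GRCm38.p6 for the 3 genes that matched, with the cAMP response element TGACGTCA and the TATA motif TATAAA in capitals.
Epgn: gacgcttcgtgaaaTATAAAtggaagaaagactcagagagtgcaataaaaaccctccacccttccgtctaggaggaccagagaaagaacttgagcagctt
Areg: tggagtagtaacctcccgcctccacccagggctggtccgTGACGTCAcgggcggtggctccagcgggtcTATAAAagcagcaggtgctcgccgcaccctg
Btc: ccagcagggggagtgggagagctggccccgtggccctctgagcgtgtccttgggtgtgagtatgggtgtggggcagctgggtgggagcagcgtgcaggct
The windows are chr5:91027417-91027516 (plus strand), chr5:91139499-91139598 (plus strand) and chr5:91402995-91403094 (minus strand). The Areg window holds both motifs, starting at positions -61 and -31 from the start site. Searched on both strands, TGACGTCA was found in 1.15% of 32851 windows of this length, TATAAA in 5.56% and both in 0.0548%. These matches describe letters in the window only, and no binding was measured.

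Areg encodes amphiregulin, a ligand of Egfr. Its 3 Control libraries held 0, 4 and 4 counts, the 3 HFD libraries 16, 4 and 6 counts, and the 3 HFD+Mino libraries 407, 502 and 66 counts. All HFD+Mino samples thus lay above all others, while Control and HFD overlapped and were near the limit of detection. Mean CPM of Areg came to 0.0769 ± 0.0666 (Control), 0.356 ± 0.387 (HFD) and 11.5 ± 8.69 (HFD+Mino; SD, n = 3 per group), so that the spread within HFD+Mino was nearly as large as its mean. Fitted log2 fold changes were 5.13 (SE 1.04) for HFD+Mino over HFD, 7.19 (SE 1.18) for HFD+Mino over Control and 2.07 (SE 1.18) for HFD over Control, and the last 2 rest on 8 counts in Control. HFD+Mino replicates 1 and 2 carried most of this rise. Without them, a choice made after seeing the data that leaves 1 HFD+Mino sample, the log2 fold change was 2.42 over HFD and 4.52 over Control. Without Control replicate 1, the library nearly devoid of Avp and Oxt, the log2 fold change over Control was 6.58.

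Areg is set here beside Avp, which vasopressin neurons of the PVN express in very large amounts. HFD+Mino replicates 1 and 2, the libraries with the most Avp, also had the most Areg at 13.9 and 18.6 CPM, and HFD+Mino replicate 3 had 1.80 CPM of Areg. Control replicate 1, with the least Avp, had no Areg count. Control replicates 2 and 3 had only 4 each, at 157 and 990 CPM of Avp, so that this 0 cannot be told from the detection limit. Avp was not alone in being highest in those 2 HFD+Mino libraries. In HFD+Mino replicates 1 and 2, Oxt was at 8910 and 8700 CPM, with at most 1410 CPM elsewhere. Crh was at 126 and 153 CPM there, with at most 52.6 CPM elsewhere. Trh was also highest in both, whereas Sim1 and Otp were not. Expressed per 1000 Avp counts, Areg counts numbered 0, 0.718 and 0.119 in Control, 1.36, 0.0780 and 0.0753 in HFD, and 0.497, 0.841 and 1.48 in HFD+Mino, so that the groups overlapped on this ratio. The 0 of Control replicate 1 rests on 6 Avp counts. HFD+Mino replicate 3 had 1.80 CPM of Areg at 1220 CPM of Avp, and the HFD libraries had 0.803 CPM of Areg at 590 CPM of Avp, 0.116 CPM at 1490 CPM and 0.149 CPM at 1980 CPM, so that within HFD the library with the least Avp had the most Areg. The markers of ependymal cells and tanycytes (Foxj1, Ccdc153, Rax, Dio2 and Col23a1) summed to 16.4 to 58.6 CPM in Control, 64.3 to 107 CPM in HFD and 110 to 182 CPM in HFD+Mino. Ccdc153 carried this order, at 134, 172 and 83.6 CPM in HFD+Mino and at most 77.6 CPM elsewhere, whereas Foxj1 was at 8.66, 6.80 and 21.3 CPM in HFD+Mino and 22.9, 18.3 and 12.1 CPM in HFD, and Dio2 was highest in Control replicate 1, which had no Areg. By edgeR and by DESeq2, 0 of these 5 were called in any comparison, with 1, 0 and 1 at an unadjusted p under 0.05 in edgeR. The list of mast cells and other leukocytes (Kit, Cpa3, Tpsb2, Ptprc, Cd3e and Il1rl1) summed to 20.1 to 31.3 CPM in Control, 22.9 to 30.5 CPM in HFD and 5.65 to 9.84 CPM in HFD+Mino, and edgeR called 1 of its 3 tested genes, lower in HFD+Mino than in HFD. Most of that sum in Control and HFD was Kit, at 17.2 CPM or more in each Control and HFD library and 3.97 to 6.77 CPM in HFD+Mino, and the mast cell markers Cpa3 and Tpsb2 were at or near 0 in all libraries. The part of Avp neurons, of these other cells or of the dissection in the Areg result was not tested, and in these bulk samples fewer cells of a type and less RNA per cell cannot be told apart.

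**Figure D1:**
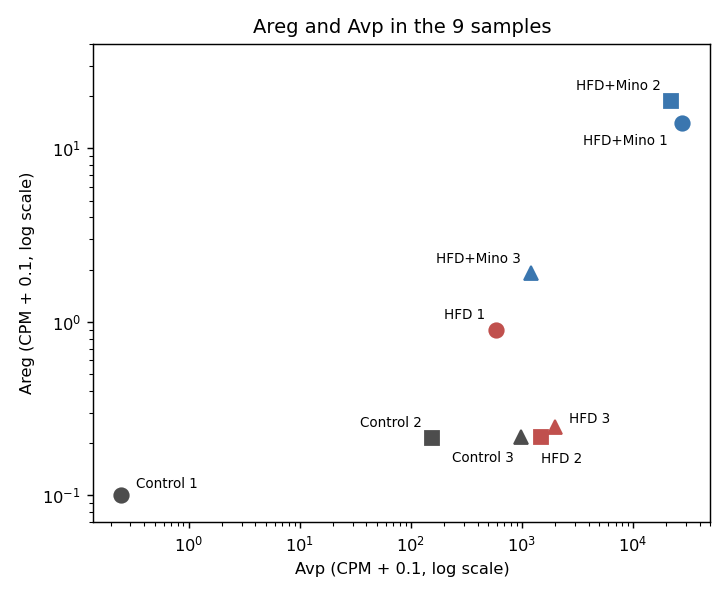
Areg against Avp in each of the 9 samples, both as CPM with 0.1 added on log axes, coloured by group (grey Control, red HFD, blue HFD+Mino) and shaped by replicate (circle 1, square 2, triangle 3). HFD+Mino replicates 1 and 2 lie at the upper right with 13.9 and 18.6 CPM of Areg, and Control replicate 1 at the lower left with no Areg count.

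The 5 tested genes whose profile over the 9 samples came closest to that of Areg were Gm19424, Slc5a8, Dnmt3l, 3300002A11Rik and Zp3. Likeness was the root mean square difference of centred log2 CPM, which ran from 1.24 for Gm19424 to 1.55 for Zp3, against a median of 2.88 over all tested genes. Dnmt3l, a regulator of de novo DNA methylation in germ cells, was at 0.0745 to 0.765 CPM in Control, 0.319 to 0.846 CPM in HFD and 1.26 to 7.32 CPM in HFD+Mino. Slc5a8, a sodium-coupled monocarboxylate transporter, peaked at 2.93 CPM in HFD+Mino replicate 2. All 5 genes were low, with at most 9.25 CPM in any library, and each was higher in HFD+Mino replicates 1 and 2 than in replicate 3. They were picked for likeness to Areg over these same samples, so that this shared order is no separate result.

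Btc, which encodes betacellulin, a ligand of Egfr and Erbb4, was the other ligand whose 3 HFD+Mino samples lay above all samples of the other groups. It was at 1.94, 0.875 and 1.32 CPM in Control, 2.11, 1.80 and 2.09 CPM in HFD, and 4.11, 8.54 and 2.79 CPM in HFD+Mino. Control and HFD overlapped, and replicate 2 was the highest HFD+Mino sample, as it was for Areg. Over HFD the log2 fold change was 1.36 (SE 0.49), with 0.79 left without HFD+Mino replicate 2. Over Control it was 1.89 (SE 0.49) and did not pass the threshold (FDR 0.132, by the quasi-likelihood test of edgeR, Benjamini-Hochberg adjusted over 17344 genes), whereas DESeq2 gave an FDR of 0.00974. Over 19 alternatives the FDR ran from 0.00974 to 0.419, and without HFD+Mino replicates 1 and 2 it was 1.

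Tgfa, which encodes transforming growth factor alpha, showed the opposite order, with its lowest values in HFD+Mino. It lies at 86195038-86275744 on chromosome 6 and was at 39.1, 17.3 and 20.9 CPM in Control, 15.6, 19.7 and 17.8 CPM in HFD, and 7.15, 9.58 and 13.7 CPM in HFD+Mino. All 3 HFD+Mino samples lay below all others, while Control and HFD overlapped. Tgfa had a log2 fold change of -1.34 (SE 0.35) for HFD+Mino over Control, which did not pass the threshold (FDR 0.132 in edgeR), and -0.80 (SE 0.35) for HFD+Mino over HFD. Without Control replicate 1, the highest Tgfa sample, the log2 fold change over Control was -0.91. That library was also the highest for the oligodendrocyte gene Mbp, at 18000 CPM against 2060 to 3330 CPM in the other Control libraries, 1540 to 4360 CPM in HFD and 1180 to 3620 CPM in HFD+Mino, and for Mog, at 440 CPM against at most 75.7 CPM elsewhere. The part of oligodendrocytes in the Tgfa values was not tested. Tgfa shares 118 of its 6490 nt of exon with Gm43917 on the other strand. The library kit does not mark strand, so that reads within this stretch cannot be told apart.

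Hbegf (heparin-binding EGF, chromosome 18) was among the 2 most abundant members, and its groups overlapped fully. Its mean CPM was 22.4 ± 8.04 (Control), 20.9 ± 1.72 (HFD) and 20.3 ± 5.08 (HFD+Mino; SD, n = 3 per group). Hbegf had a log2 fold change of -0.10 for HFD over Control, with a 95% interval of -0.76 to 0.57 (FDR 0.888 in edgeR), and -0.14 for HFD+Mino over Control, with an interval of -0.80 to 0.52 (FDR 0.806).

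Egf itself, at 129677574-129755322 on chromosome 3, was low and similar in the 9 libraries, from 37 to 80 counts. Its mean CPM was 1.67 ± 0.295 (Control), 1.71 ± 0.159 (HFD) and 2.17 ± 0.700 (HFD+Mino; SD, n = 3 per group). Its log2 fold change was 0.04 for HFD over Control (95% interval -0.89 to 0.97) and 0.38 for HFD+Mino over Control (95% interval -0.54 to 1.31). Neither difference passed the test (FDR 0.968 and 0.61 in edgeR). Of its 11275 nt of exon, Egf shares 607 nt with Gm42697 and 500 nt with 6330410L21Rik, both antisense. Reads within these stretches cannot be assigned with certainty.

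Ereg (epiregulin) was not detected above 6 counts in any library and did not pass the filter on low counts. Its counts were 0, 2 and 0 in Control, 4, 0 and 0 in HFD, and 0, 0 and 6 in HFD+Mino. Epgn (epithelial mitogen), the remaining ligand gene of the chromosome 5 row and not one of the 10, had at most 8 counts in a library. Ereg and Epgn were thus at or near the detection limit in all groups, including the 2 libraries in which Areg was at its highest.

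Nrg1 (neuregulin 1, chromosome 8, 31807452-32891609) was at 5.04, 5.31 and 8.30 CPM in Control, 8.23, 10.3 and 16.9 CPM in HFD, and 7.46, 11.0 and 5.11 CPM in HFD+Mino. HFD had the highest mean, but its lowest sample lay just under the highest Control sample, and HFD replicate 3 stood above the rest. A log2 fold change of 0.93 (SE 0.38) for HFD over Control did not pass the threshold (FDR 0.201 in edgeR), and it was 0.57 without HFD replicate 3. Nrg1 shares 482 nt of exon with Gm26578 on the other strand.

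All 3 receptors were highest in HFD and lowest, on average, in HFD+Mino. Egfr, the receptor of Areg, Egf and Tgfa (chromosome 11, 16752203-16913907), was at 5.44, 5.00 and 8.30 CPM in Control, 10.8, 11.8 and 10.5 CPM in HFD, and 3.18, 5.79 and 3.03 CPM in HFD+Mino. Erbb2, the partner without a ligand (chromosome 11, 98412484-98437716), was at 0.621, 1.78 and 3.12 CPM in Control, 4.47, 3.39 and 4.51 CPM in HFD, and 0.377, 1.41 and 2.13 CPM in HFD+Mino. Erbb4, a neuregulin receptor (chromosome 1, 68031884-69108576), was at 4.32, 6.75 and 5.56 CPM in Control, 18.1, 8.47 and 16.1 CPM in HFD, and 1.57, 6.32 and 4.04 CPM in HFD+Mino. For each receptor the HFD samples lay above all 6 others, as they did for 13.4% of all tested genes, and Control and HFD+Mino overlapped.

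For HFD over Control, the log2 fold change was 0.82 (SE 0.34) for Egfr, 1.16 (SE 0.65) for Erbb2 and 1.36 (SE 0.47) for Erbb4. None passed the threshold, with FDRs of 0.203, 0.343 and 0.128 in edgeR and 95% intervals of 0.07 to 1.57, -0.27 to 2.60 and 0.33 to 2.39. For HFD+Mino over HFD, the log2 fold changes were -1.46 (SE 0.35), -1.65 (SE 0.67) and -1.84 (SE 0.48) in the same order, given as a description. Both comparisons share the HFD samples. Between HFD+Mino and Control the log2 fold changes were -0.64, -0.48 and -0.48, with FDRs of 0.296, 0.685 and 0.561 in edgeR. Long transcripts were most favoured in HFD, and the summed markers of astrocytes and of microglia and macrophages were highest there. Mbp and Mog, given above, were instead highest in Control replicate 1. Exons of Egfr and Erbb4 add up to 11326 and 12355 nt and those of Erbb2 to 5210 nt, where the tested genes had a median of 4334 nt. With the trend of each sample on exon length removed, the log2 fold changes of HFD over Control were 0.41 for Egfr, 1.09 for Erbb2 and 0.89 for Erbb4, and those of HFD+Mino over HFD were -0.87, -1.35 and -1.24. Astrocyte markers (Gfap, Aqp4, Aldh1l1, Slc1a3 and Gja1, all detected) summed to 1560 to 1720 CPM in Control, 2100 to 2220 CPM in HFD and 961 to 1510 CPM in HFD+Mino, with 0 of 5 called by edgeR in any comparison and 1, 4 and 4 of 5 at an unadjusted p under 0.05 for HFD over Control, HFD+Mino over HFD and HFD+Mino over Control (DESeq2 called 0, 3 and 0). Markers of oligodendrocyte precursors (Pdgfra, Cspg4, Olig1, Sox10 and Gpr17, all detected) summed to 208 to 391 CPM, 301 to 385 CPM and 111 to 205 CPM, with 1 of 5 called higher in HFD than in Control and 2 of 5 called lower in HFD+Mino than in HFD. Microglia and macrophage markers (Aif1, Cx3cr1, P2ry12, Tmem119, Csf1r and Mrc1) summed to 138 to 171 CPM, 200 to 217 CPM and 131 to 184 CPM, with 0 of 6 called by edgeR or DESeq2 and 1, 3 and 0 of 6 at an unadjusted p under 0.05 in edgeR. Single markers differed within these lists. Slc1a3 was at 1300 to 1450 CPM in HFD and at most 1040 CPM elsewhere. Gfap was instead highest in Control replicate 1, at 508 CPM. Cspg4 and Gpr17 were highest in HFD, but Olig1 and Sox10 in Control replicate 1, at 292 and 59 CPM. Csf1r and Cx3cr1 were highest in HFD, but Aif1 was at 5.97 to 7.19 CPM there and 8.77 to 23.7 CPM in HFD+Mino. The part of cell makeup in the receptor values was not tested.

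**Figure D2:**
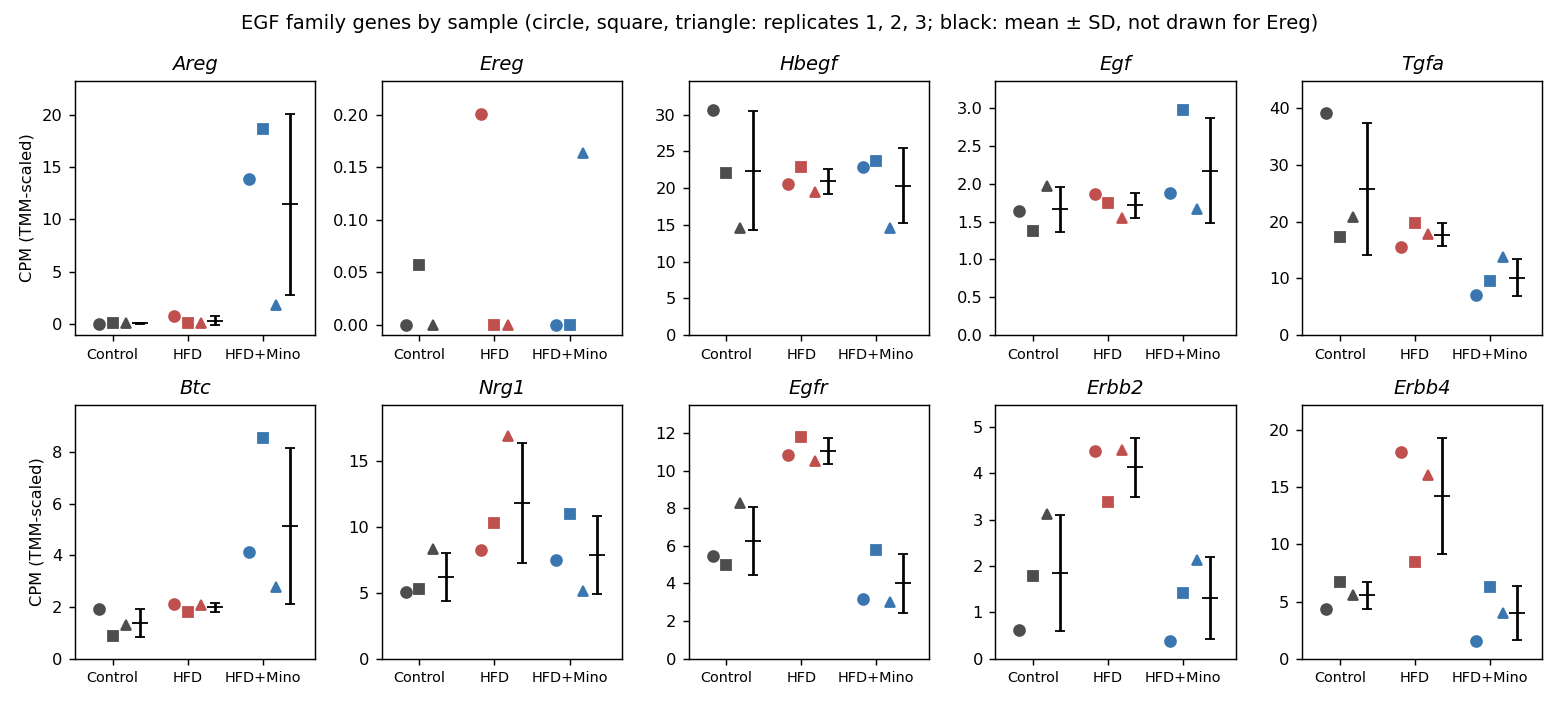
CPM of the 10 members in each of the 9 samples, 1 panel per gene, each with its own linear axis, with Control in grey, HFD in red and HFD+Mino in blue, replicates 1 to 3 as circle, square and triangle, and the mean ± SD (n = 3) in black except for Ereg. Areg and Btc are highest in the HFD+Mino samples, with Areg from 1.80 to 18.6 CPM there, and Egfr, Erbb2 and Erbb4 are highest in the HFD samples.

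Counted over the family, 9 of the 10 members passed the filter on low counts. A gene was called when its FDR over all 17344 tested genes was under 0.01 and its change at least 1.5-fold. Areg is left out of the tests, which leaves 8 members. Between HFD and Control 0 of the 8 were called (1.74% of all tested genes were, 0.317% higher and 1.42% lower), DESeq2 called 0, and 3 had an unadjusted p under 0.05 in edgeR (Nrg1, Egfr and Erbb4), beside 20.5% of all tested genes. The groups did not overlap for 3 of the 8, all higher in HFD, against 19.7% of all tested genes separated in that direction, 16% in the other and 35.7% in either. The median log2 fold change of the 8 was 0.68, beside 0.00 over all tested genes. Between HFD+Mino and Control 0 of the 8 were called (0% of all tested genes), DESeq2 called 1, Btc, and 2 had an unadjusted p under 0.05 in edgeR (Tgfa and Btc), beside 21.3% of all tested genes. The groups did not overlap for 1 of the 8 upwards and 1 downwards, beside 8.93% and 10.1% of all tested genes (19.1% either way). Between HFD+Mino and HFD, the comparison in which Areg was noticed, the members' values are a description. Areg, picked for it, was the only member past the threshold for a call (4.15% of all tested genes were). The groups did not overlap for 2 upwards, Areg and Btc, and for 4 downwards, Tgfa and the 3 receptors, beside 23.3% and 23.5% of all tested genes (46.7% either way). Nothing is read from these counts.

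**Figure D3:**
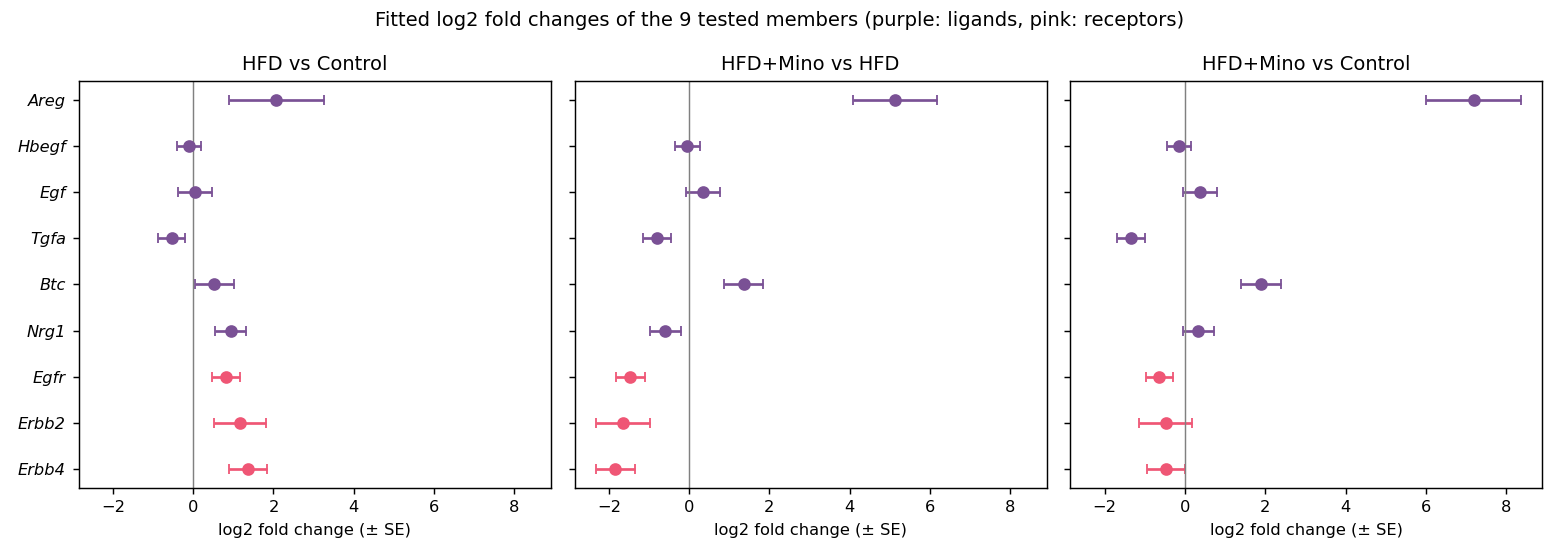
Fitted log2 fold changes with their standard errors for the 9 tested members in the 3 comparisons, ligands in purple and receptors in pink. Areg lies farthest from 0 in both comparisons of HFD+Mino, at 5.13 and 7.19, and the 3 receptors lie above 0 in HFD over Control and below 0 in HFD+Mino over HFD.

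Levels of different members can be set side by side only per length of exon. In Control, Hbegf (4.62 ± 1.66 CPM per kb) and Tgfa (3.97 ± 1.80) were the most abundant and did not differ beyond their spread. Nrg1 (0.601 ± 0.175), Egfr (0.551 ± 0.158), Erbb4 (0.449 ± 0.0982), Erbb2 (0.353 ± 0.240) and Btc (0.305 ± 0.118) followed, each apart from its neighbour by less than the larger SD of the pair, and then Egf (0.148 ± 0.0262), Areg (0.0633 ± 0.0548) and Ereg (0.00456 ± 0.00790; all SD, n = 3). Areg, next to last in Control, had the highest mean of all members in HFD+Mino, at 9.43 ± 7.15 CPM per kb against 4.20 ± 1.05 for Hbegf, a difference within the SD of Areg. It reached 11.5 and 15.3 CPM per kb in HFD+Mino replicates 1 and 2, and in replicate 3, at 1.48, it was below Hbegf (2.99) and Tgfa (2.12).

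The remaining genes of the pathway, 44 genes outside the 10, were examined with the same fit, which tested 43 of them. Neuregulins 2 and 3 fell in HFD. Nrg2, a ligand of Erbb3 and Erbb4, was at 4.35, 4.07 and 6.24 CPM in Control, 0.753, 0.812 and 0.647 CPM in HFD, and 2.64, 1.82 and 5.16 CPM in HFD+Mino. Nrg3, a ligand of Erbb4, was at 14.1, 15.6 and 18.3 CPM in Control, 4.37, 4.61 and 6.35 CPM in HFD, and 13.0, 15.1 and 14.7 CPM in HFD+Mino. For both genes the HFD samples lay below all others, and HFD+Mino overlapped Control. In HFD over Control the log2 fold change was -2.72 (SE 0.47, FDR 0.00783 in edgeR) for Nrg2 and -1.64 (SE 0.26, FDR 0.00475) for Nrg3, and Nrg3 was 1.48 higher on the log2 scale in HFD+Mino than in HFD (SE 0.26, FDR 0.00672). Nrg2 in HFD+Mino over HFD was at 2.12 (SE 0.47) and missed the threshold (FDR 0.0123 in edgeR). It was called, at 2.00, when a block for the replicate number was added to Control and HFD+Mino. That block was chosen from these same counts, and with it 25.6% of all tested genes were called, against 4.15% without it. The richest 100 nt of the longest transcript held 88% G and C in Nrg2 and 91% in Nrg3, where the tested genes had a median of 72%. With the trend of each sample on the GC content of the whole transcript removed, Nrg2 and Nrg3 were called in both comparisons. Without Control replicate 2 or 3, or any single HFD sample, neither gene was called between HFD and Control, and without Control replicate 1 or HFD+Mino replicate 1 Nrg2 was not. A replicate block in all samples also left Nrg2 uncalled between HFD and Control. That block pairs samples by title number, which the HFD samples did not follow. The call of Nrg3 in HFD+Mino over HFD was lost without Control replicate 2, any single HFD sample, or HFD+Mino replicate 1 or 2.

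Erbb3, the fourth receptor, which pairs with Erbb2, was at 3.92, 1.98 and 3.30 CPM in Control, 4.97, 5.92 and 3.76 CPM in HFD, and 0.240, 0.111 and 1.45 CPM in HFD+Mino. Its 3 HFD+Mino samples lay below all others. Its log2 fold change was -2.98 (SE 0.75, FDR 0.0177 in edgeR) for HFD+Mino over HFD and -2.31 (SE 0.74, FDR 0.141) for HFD+Mino over Control, which did not pass the threshold, and both were called without HFD+Mino replicate 3, at -4.76 and -4.09. Leaving that sample out raised the share of all tested genes called from 4.15% to 21.4% and from 0% to 6.28% in these comparisons. DESeq2 called Erbb3 in HFD+Mino over HFD with all samples, and so did edgeR with the block, at -3.50. Nrg4 was low, from 0.473 to 1.42 CPM, and was not called in any comparison, and it shares 368 nt of exon with Fbxo22 on the other strand.

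Of the other 39 pathway genes, 2 were called, both lower in HFD+Mino than in HFD. Cbl, a ubiquitin ligase that sends activated Egfr to degradation, was at 5.12, 9.06 and 8.89 CPM in Control, 23.0, 21.1 and 27.4 CPM in HFD, and 3.66, 4.46 and 6.94 CPM in HFD+Mino, a log2 fold change of -2.25 (SE 0.34, FDR 0.00377 in edgeR) for HFD+Mino over HFD. Etv5, a transcription factor induced by ERK signaling, was at 26.4, 22.5 and 31.1 CPM in Control, 48.5, 51.7 and 44.2 CPM in HFD, and 15.3, 10.3 and 24.5 CPM in HFD+Mino, a log2 fold change of -1.53 (SE 0.30, FDR 0.00954 in edgeR). In both genes the HFD samples lay above all others, as in the 3 receptors. For HFD over Control, Cbl was at 1.63 (FDR 0.0152) and Etv5 at 0.85 (FDR 0.134), and neither passed, although Cbl was called, at 1.67, with the block. DESeq2 (6.84% of all tested genes called), no filter on low counts, the model of 6 samples and the fit without HFD+Mino replicate 3 also called Cbl there. RLE scaling, a mean count of at least 50 and the length or GC trend removed did not. Both calls in HFD+Mino over HFD were lost without any single HFD sample or without HFD+Mino replicate 1 or 2, and that of Etv5 also without Control replicate 2 or 3. Exons of Cbl add up to 12345 nt, and with the length trend removed its log2 fold change in HFD+Mino over HFD was -1.63. By function, 0 of 9 genes of ligand processing (among them Adam10 and Adam17), 0 of 10 adaptors and proximal effectors (among them Grb2 and Shc1), 1 of 14 genes of receptor restraint and turnover (Cbl) and 1 of 6 transcriptional targets (Etv5) were called between HFD+Mino and HFD. In that comparison edgeR gave log2 fold changes of -2.01 for Adam10 (FDR 0.0117) and -0.54 for Adam17 (FDR 0.119). It gave 0.71 for Grb2 (FDR 0.0299) and -0.98 for Shc1 (FDR 0.0669). DESeq2, which called 22.4% of all tested genes there, called Adam10 and Grb2. In HFD over Control, Grb2 missed the threshold at -1.14 (FDR 0.0107 in edgeR). Over the whole list, 2 of 43 were called between HFD and Control, both lower (1.42% of all tested genes), 1 higher and 2 lower of 43 between HFD+Mino and HFD (1.98% and 2.16%), and 0 between HFD+Mino and Control, where 9 had an unadjusted p under 0.05 in edgeR, close to the share of all tested genes (21.3%), and DESeq2 called 0. A block for the replicate number, set in Control and HFD+Mino, turned these counts into 4, 16 and 3, and the share of all tested genes called into 6.22%, 25.6% and 3.18%. The median log2 fold change of the 43 genes was -0.01, -0.51 and -0.60 in these comparisons, beside 0.00, 0.01 and -0.02 over all tested genes.

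**Figure D4:**
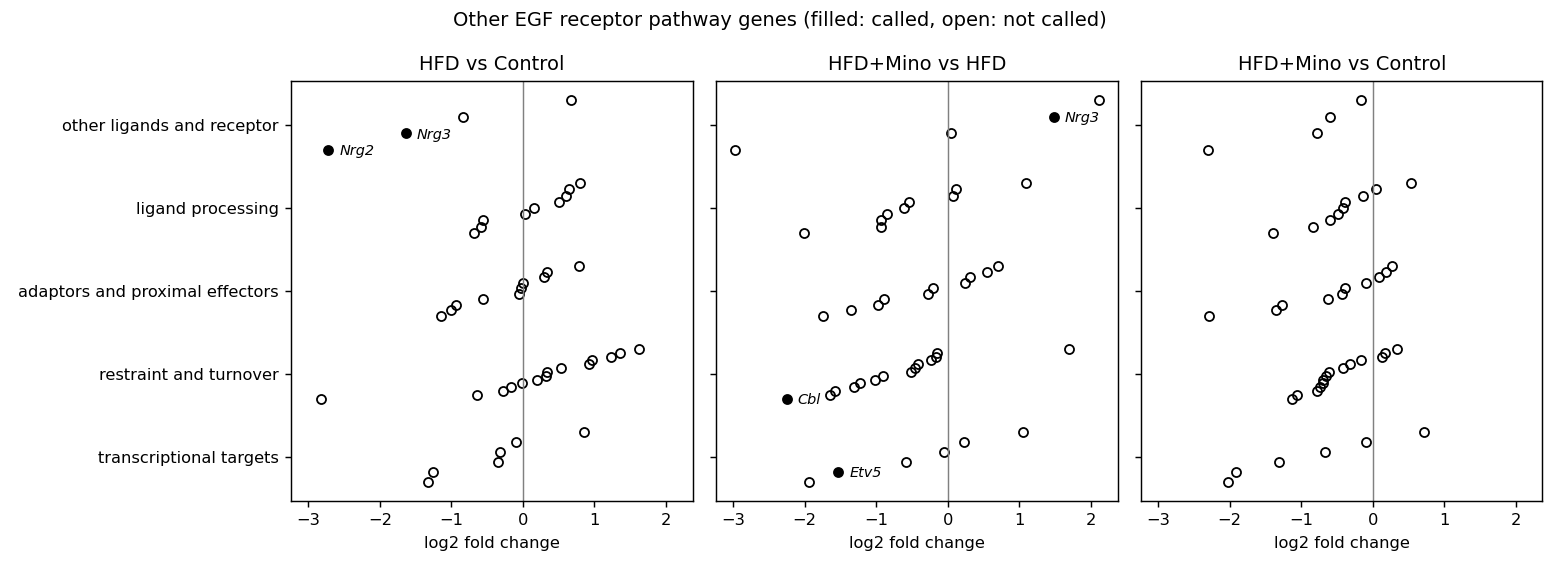
Fitted log2 fold changes of the 43 tested pathway genes outside the family members, by function, in the 3 comparisons, with called genes filled and named and the others open. Nrg2 and Nrg3 are called lower in HFD than in Control, Nrg3 is called higher and Cbl and Etv5 lower in HFD+Mino than in HFD, and none is called between HFD+Mino and Control.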

How the data were processed

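Bulk RNA sequencing of PVN punches gave 1 library per mouse. The deposited table holds raw read counts per gene, which the authors made by alignment to mm10 with HISAT2 and assignment with featureCounts (tools as in the submitters' processing notes). The kit (SMARTer cDNA with Nextera XT) does not mark strand. Versions, annotation and the treatment of reads with several positions are not given in the sources used here. Groups and replicate numbers follow the sample titles, and 0 columns were left unused. The count columns number the HFD samples differently from their titles.

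Counts were filtered with filterByExpr, scaled by TMM and fitted with edgeR 4.0.16 (R 4.3.3) by its quasi-likelihood test, with 1 mean per group over all 9 samples, and adjusted by Benjamini-Hochberg over 17344 genes. The code was tested on simulated data. Counts of replicates varied beyond sampling noise. Chi-square over its degrees of freedom was 90.3 to 289 in Control, 21 to 31.2 in HFD and 108 to 316 in HFD+Mino. The fit shares its dispersion over these unequal groups. With 1 library per mouse, p-values measure the spread between samples, which can include dissection and library differences. Reads carry no molecular identifiers. Exon length and GC content came from GENCODE M21 (21610 genes matched), and positions from RefSeq GRCm38.p6 (25275 genes). Figures were drawn with matplotlib 3.10.9.

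Same-numbered Control and HFD+Mino samples deviated together (deviation from the group mean correlated at 0.135, 0.163 and 0.292), while the main model has no block. Unlike-numbered samples of these groups correlated at -0.162 to 0.026. These values are tied to each other, since deviations within a group sum to 0. Control replicate 2 and HFD replicate 1, unlike in number, correlated at 0.167, so that the evidence for a pairing is weak. Blocked log2 fold changes are given for Nrg2, Erbb3 and Cbl only, and other calls that the block changed are given as counts. The pairing rests on the counts, as no label names a shared batch. HFD samples did not follow this numbering, as same-numbered Control and HFD samples correlated at -0.133, -0.109 and -0.006. Alternatives were DESeq2 1.42.0, RLE scaling, other filters on low counts (none, or a mean count of at least 50), ribosomal and mitochondrial genes left out, the replicate block, trends on exon length or GC content removed, models of 6 samples, other thresholds (an FDR under 0.05, or no fold limit) and each sample left out. The members and gene lists were chosen with earlier results of these data known. Named were all members, the other ligands and Erbb3, the called pathway genes (at most 5 per group of genes and comparison), Rn45s and the 5 genes most like Areg. Avp, Oxt and Otp in single libraries, Sim1, Crh, Trh, Ccdc153, Foxj1, Dio2, Kit, Cpa3, Tpsb2, Mbp and Mog were chosen after their values were seen. So were the single markers of astrocytes, oligodendrocyte precursors and microglia, and Adam10, Adam17, Grb2 and Shc1. Of the marker lists, only those named in the text are described.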

Additional observations from a re-analysis of the deposited data

How the results depend on the processing

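Calls depended on single samples and on the model. The counts of members here include Areg, and those in HFD+Mino over HFD describe the comparison that led to the choice of the family, so neither serves as a test. Leaving out each sample in turn gave 0 members called between HFD and Control, 0 to 1 between HFD+Mino and HFD and 0 to 1 between HFD+Mino and Control, and 0 to 5, 0 to 13 and 0 to 9 of the other pathway genes. For the members in HFD+Mino over HFD, where 1 was called, DESeq2 called 3, RLE scaling 0, no filter on low counts 2, the length trend removed 0, models of 6 samples 0 and an FDR under 0.05 called 3, and the replicate block in Control and HFD+Mino called 4. Without HFD+Mino replicates 1 and 2, chosen after seeing the data, it was 0. For HFD+Mino over Control, where 0 members were called, DESeq2 called 2, no filter 1 and the replicate block in these groups 1. For the pathway genes in HFD over Control, where 2 were called, DESeq2, models of 6 samples, an FDR under 0.05 and the fit without HFD+Mino replicates 1 and 2 each called 5, the replicate block in all samples 1 and in Control and HFD+Mino 4. In HFD+Mino over HFD, where 3 were called, DESeq2 called 13, no filter 7, the GC trend removed 5, models of 6 samples 1, an FDR under 0.05 called 15, and the replicate block 7 in all samples and 16 in Control and HFD+Mino. In HFD+Mino over Control the latter block called 3 pathway genes, from 0. The block changed no other call among the members. The share of all tested genes called moved too, in HFD+Mino over HFD from 4.15% to 22.4% with DESeq2, 7.61% with no filter, 8.92% with the GC trend removed, 2.43% with 6 samples, 27.4% at an FDR under 0.05, 7.89% and 25.6% with the blocks, and 21.4% without HFD+Mino replicate 3. The causes were not tested.

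In the comparisons with Control, log2 fold changes near 0 turned sign in 10 cases. In HFD+Mino over HFD, Hbegf ran from -0.17 to 0.29 and Nrg1 from -0.91 to 0.01. With single samples left out, Hbegf in HFD over Control ran from -0.33 to 0.19 (above 0 without Control replicate 1) and in HFD+Mino over Control from -0.38 to 0.15 (0.15 without Control replicate 1, 0.05 without HFD+Mino replicate 3). Egf in HFD over Control ran from -0.07 (without Control replicate 2) to 0.18, with -0.02 when HFD replicate 1 was left out. With the length trend removed, Hbegf in HFD+Mino over Control was 0.10 and Egf in HFD over Control -0.38. In HFD+Mino over Control, Erbb2 ran from -1.04 to 0.13 (the latter without Control replicate 3) and was 0.23 without HFD+Mino replicates 1 and 2, and Nrg1 was -0.27 without the latter. The log2 fold change of Areg in HFD+Mino over HFD ran from 3.96 (with the length trend removed) to 6.38 over 19 alternatives. With 3 mice per group and at most 16 Areg counts in any Control or HFD library, the size of its rise is poorly bounded.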
